A study of Mus musculus with 2 samples.

Results

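Retained-intron transcripts are annotated RNAs of a gene that keep sequence which the gene's other transcripts splice out. They were taken here as every transcript that the annotation names carried in the deposited tables label retained_intron, which gave 21848 of 141767 annotated transcripts. These transcripts came from 9421 host genes, 17.0% of the 55450 annotated genes, and 9120 of the hosts also had a transcript labelled protein_coding. Total RNA was sequenced from the left cerebral cortex. The mice were B6CASTF1/J males aged 25 days, the first-generation offspring of a C57BL/6J by CAST/EiJ cross, with 300 ng of RNA per library and ERCC spike-ins meant for stranded libraries with reduced ribosomal RNA. There was 1 group of 2 libraries, replicate 1 and replicate 2, with no genotype change and no treatment, so there was no contrast between conditions and no test was run. Both libraries carry the same donor entry, so that they come from separate animals rests on their tissue numbers and on their numbering as biological replicates.

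Each library had been quantified in an estimated-count table (30917453 and 33666133 counts) and an expected-count table (30356291 and 33118314 counts). Levels are TPM, a transcript's reads per length scaled to a fixed total per library, from the estimated-count table unless the other is named. Pairs of values are replicate 1, then replicate 2. Cell type markers were read per gene from the expected-count gene table. Neuronal markers stood high in both libraries, with Snap25 at 1168 and 1155 TPM and the glutamatergic marker Slc17a7 at 675 and 664 TPM. Peripheral leukocyte markers were at or near 0, with Cd79a at 0.33 and 0.20 TPM and Ly6g and Nkg7 at 0. The choroid plexus marker Ttr differed, at 19.5 and 192 TPM, as did the oligodendrocyte marker Mbp, at 348 and 463 TPM.

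Splicing removes introns from the nascent RNA in the nucleus, mostly while the gene is still being transcribed. An intron can stay in a polyadenylated RNA. Such RNAs are often held in the nucleus as detained-intron transcripts, or exported and degraded by nonsense-mediated decay when the intron brings in an early stop codon, and in neurons some are stored and spliced after a stimulus. Short introns with weak splice sites are known to be retained most often. Total RNA also contains unfinished pre-mRNA, and short reads from a retained intron cannot be told apart from reads from pre-mRNA.

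Of the 21848 transcripts, 7034 held at least 1 whole intron of their gene between exons, up to 22 in 1 transcript, and 14814 held none whole. Over all of them a median of 350 bases lay in no exon of the gene's transcripts of other types, and 243 had no such base. The whole introns held numbered 10258 in 4307 genes. They were short, with a median of 289 bases (quartiles 126 and 744) against 1397 bases (462 and 3720) for all 158105 introns of the host genes. The dinucleotides GT and AG stood at the ends of 10013 of them, or 97.6%, GC and AG at 147, and AT and AC at 12. Among 8676 that also lie between exons of a protein_coding transcript, 6836 were internal introns, 1024 first ones and 744 last ones. The reading frame could be followed into 7951 introns between coding exons. An in-frame stop codon began within 7054 of these, or 88.7%, at a median of 37 bases into the intron. No stop was met in 897, whose median length was 93 bases against 319 bases for the others, and 240 of the 897 were multiples of 3 in length. Host gene introns that are not held were not read for stops, so these values stand without a background.

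The introns below show how such an insertion reads. They are whole GT-AG introns between coding exons, 60 to 200 bases long, from transcripts that stood high in both tables and both libraries. Rps20 encodes a protein of the small ribosomal subunit, and its intron lies at chr4:3835292-3835483 on the minus strand. The intron of Trim28, a co-repressor that silences transposable elements, lies at chr7:13030376-13030454, plus strand. That of Carmil2, a regulator of actin capping, lies at chr8:105690920-105691082, plus strand, and that of Med14, a subunit of the Mediator complex, at chrX:12706446-12706531, minus strand. Sequences are from GENCODE M21 transcripts on mm10, 5′ to 3′ on the strand of the gene. Capitals mark the splice-site dinucleotides and the first in-frame stop codon.
Rps20-201: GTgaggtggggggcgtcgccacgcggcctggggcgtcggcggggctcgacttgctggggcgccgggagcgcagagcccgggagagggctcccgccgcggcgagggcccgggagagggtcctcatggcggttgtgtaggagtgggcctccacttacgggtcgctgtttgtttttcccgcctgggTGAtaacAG
Trim28-203: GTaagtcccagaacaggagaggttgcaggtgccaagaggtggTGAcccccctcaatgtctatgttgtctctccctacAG
Carmil2-201: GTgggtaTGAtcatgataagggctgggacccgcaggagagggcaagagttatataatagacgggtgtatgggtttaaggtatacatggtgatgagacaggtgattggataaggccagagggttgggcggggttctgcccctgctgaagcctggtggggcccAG
Med14-204: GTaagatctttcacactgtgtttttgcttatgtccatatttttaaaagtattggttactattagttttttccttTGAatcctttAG

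The stop codon is TGA in all 4 and begins at base 184 of 192 in the Rps20 intron, 43 of 79 in Trim28, 8 of 163 in Carmil2 and 75 of 86 in Med14. The introns also differ in base composition, from 71.9% G and C in Rps20 to 27.9% in Med14. Rps20-201 stood at 150 and 141 TPM, and at 89.4 and 64.5 TPM in the expected-count table. The other 3 lay between 25.0 and 36.2 TPM, and between 15.1 and 26.2 TPM in the expected-count table. Within each table, all 4 differed by less than 1.5-fold between the libraries. The 4 were chosen after their values were seen.

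Most AT-AC introns belong to a rare class that is removed by the minor spliceosome. Its U11 and U12 particles recognise a long fixed sequence at the intron start. Read on the strand of the gene only, 10 of the 12 AT-AC introns began with ATATCCTT, as did 13 of all 10258 introns held, or 0.127%. The form with G in the first place, GTATCCTT, began 30 of 10013 GT-AG introns, or 0.30%. The highest of the 12 by the lowest of its 4 values was the intron of Tcea2, a transcription elongation factor, at chr2:181686247-181686597, plus strand, 351 bases long and between coding exons. Its ends are shown with ATATCCTT and the last dinucleotide in capitals.
Tcea2-206 intron start: ATATCCTTtgtacagggtatatagggtcaa
Tcea2-206 intron end: aacctcaggtgggtccttaaacacctgcAC

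Tcea2-206, which holds this intron and 1 more of the same gene, stood at 5.50 and 6.33 TPM, and at 4.27 and 3.36 TPM in the expected-count table. The AT-AC introns of Pole2, Scn9a and Spc24 were held by transcripts at or near 0, the lowest of their 4 values being 0.04, 0.01 and 0.00 TPM.

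As a class the retained-intron transcripts summed to 67313 TPM in replicate 1 and 63928 TPM in replicate 2, or 6.64 ± 0.25% of all transcript TPM (SD, n = 2). They took 1050921 and 1059377 estimated counts, or 3.40% (95% Wilson interval 3.39 to 3.41) and 3.15% (3.14 to 3.15) of all counts. Reads carry no molecular identifiers, so these intervals cover counting error only. In the expected-count table they summed to 35714 and 32714 TPM, 3.45 ± 0.22% of the total, on 953992 and 950650 counts. The TPM of the class was thus 1.92 times as high in the estimated-count table, while its percent of the counts differed less, 3.40% and 3.15% against 3.14% and 2.87%. Protein_coding transcripts likewise summed to 656230 and 661272 TPM in the estimated-count table but to 410824 and 410620 TPM in the other.

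**Figure D1:**
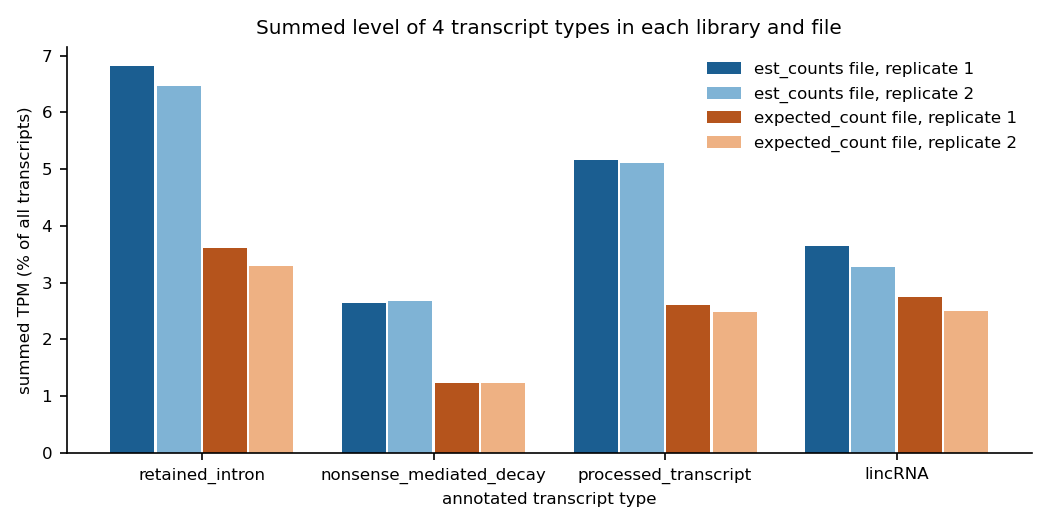
Summed TPM of 4 annotated transcript types as a percent of all transcript TPM (bars, 1 per library and table; blue, estimated-count table, est_counts; orange, expected-count table, expected_count). Retained-intron transcripts held the highest share of TPM of the 4 in every library and table, 6.81% and 6.46% in the first table and 3.60% and 3.30% in the second. In percent of counts lincRNA transcripts stood higher, at 5.33% and 4.86% against 3.40% and 3.15% in the first table. In the second table they took 4.46% and 4.06% against 3.14% and 2.87%.

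Most retained-intron transcripts were scarce. The median over all 21848 was 0.934 TPM, and 8727 of them, or 39.9%, reached 1 TPM in both libraries, close to the 41.0% of protein_coding transcripts and above the 26.4% of processed_transcript and 31.3% of nonsense_mediated_decay transcripts. In the expected-count table, 6260, or 28.7%, reached that level, below the 36.1% of protein_coding transcripts. There it was 18.0% of processed_transcript and 19.8% of nonsense_mediated_decay transcripts. In both tables, 5177 retained-intron transcripts reached it. A mean of 10 TPM was reached by 973 and of 100 TPM by 58, against 440 and 13 in the expected-count table. A transcript with no count can have up to 3 counts, which is 0.759 and 0.671 TPM at a length of 600 bases and 0.117 and 0.105 TPM at 2000 bases. Per the expected-count table's own intervals, 3313 of the 6260 had a lower bound of at least 1 TPM in both libraries, or 52.9%, against 77.1% of protein_coding transcripts at 1 TPM.

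Transcripts with more whole introns reached the detection level in a higher percent of cases. The median level was 0.856 TPM for those with no whole intron, 0.987 TPM with 1, 1.15 TPM with 2 and 1.32 TPM with 3 or more, and 37.6%, 41.9%, 47.3% and 52.2% of them reached 1 TPM in both libraries. The 7034 transcripts with a whole intron are 32.2% of the class and took 33.6% of its TPM, and 29.1% in the expected-count table. Clk1-204, which holds 4 introns of the kinase gene Clk1, stood at 17.1 and 12.2 TPM. Length went up along with the introns held, with medians of 774, 1180, 2109 and 2861 bases, and its part in the levels was not tested.

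The transcripts that stood highest in both tables came from genes of very different roles. They are named by the lowest of their 4 values, a rule chosen after the values were seen. None of those named in this and the next paragraph holds a whole intron of its gene. Prkcb-208 and Ctnnb1-215 end at the annotated 3′ end of their genes. Prkcb-208, from the gene of protein kinase C beta, a signalling kinase abundant in cortical neurons, is a single exon of 955 bases (chromosome 7, 122633448 to 122634402), of which 297 bases lie in no exon of the gene's transcripts of other types. It stood at 200 and 226 TPM, and at 184 and 196 TPM in the expected-count table. Itm2b-202, from the gene of a membrane protein that is mutated in familial British and Danish dementia, stood at 230 and 214 TPM and at 151 and 140 TPM. All 4 values of each of these transcripts lay within 2-fold.

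Ctsb-202, from the gene of the lysosomal protease cathepsin B, stood at 191 and 186 TPM, and at 114 and 113 TPM in the expected-count table. Atp6v1d-202, from a gene of the proton pump that acidifies lysosomes and synaptic vesicles, stood at 190 and 214 TPM and at 85.8 and 91.2 TPM. Mical2-206, from the gene of an enzyme that oxidises actin, stood at 108 and 128 TPM and at 73.5 and 78.4 TPM. As given, these 3 were lower in the expected-count table in both libraries. The median ratio of the estimated-count over the expected-count table was 1.47 over all transcripts compared, and these values were not adjusted for it. Ctnnb1-215, from the gene of beta-catenin, is a single exon with 93 bases in no exon of the gene's transcripts of other types, and stood at 103 and 86.5 TPM and at 79.4 and 84.6 TPM. The bases that set such a transcript apart are few, and the rest of its reads could come from other transcripts of the gene.

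Among the highest single transcripts of the estimated-count table were Cox6a1-202, from a gene of cytochrome c oxidase, at 523 and 569 TPM, and Ppia-204, from the gene of the peptidyl-prolyl isomerase cyclophilin A, at 499 and 478 TPM. In the expected-count table these stood at 6.91 and 5.09 TPM, and at 1.37 and 1.18 TPM. The libraries thus gave near values within a table while the tables differed by a factor of at least 10. The 10 highest transcripts of the estimated-count table, which also include Rps27-209, Cox7b-203, Ptms-203, Rpl31-204, Tpt1-207, Rpl37a-204 and Sncb-204, took 8.07% of the class's TPM. All 10 were between 468 and 677 bases long.

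Summed by host gene, the 20 leading genes took 12.9% of the class's TPM and the 100 leading genes 28.3%. They include 7 genes of ribosomal proteins, among them Rps27, Rpl31, Rpl37a, Rps16, Rps25 and Rps20, the cytochrome c oxidase genes Cox6a1 and Cox7b, and Ppia and Tpt1, a growth-related protein of nearly all cells. Neuronal or signalling genes among them were Sncb (beta-synuclein), Arpp21 (a phosphoprotein of neurons), Ywhae (a 14-3-3 protein) and Ap2m1 (an adaptor of clathrin-mediated endocytosis). Ptms (parathymosin), Zwint (a kinetochore protein), Gm49601 and AC121821.1 also belong to the 20. Many ribosomal protein genes and Ppia have near-identical processed pseudogenes, and Gm49601 overlaps Gp1bb and Sept5 on the same strand, so their values are uncertain.

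Sncb (ENSMUSG00000034891.13, chromosome 13, 54758860 to 54766595) stood at 377 and 376 TPM in its 2 retained-intron transcripts, 43.9% and 43.6% of the gene's TPM, and at 85.6 and 75.4 TPM in the expected-count table. Ywhae stood at 266 and 275 TPM, and at 109 and 120 TPM in the expected-count table. For both of these genes a level over 70 TPM was thus found in both tables.

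Arpp21 stood at 333 and 269 TPM and at 126 and 102 TPM in the expected-count table, and its share of the gene, 34.8% and 28.5%, was nearly the same there, 35.1% and 28.9%. Rps20 stood at 354 and 223 TPM and at 116 and 76.4 TPM, lower in replicate 2 in both tables. Rps16 stood at 337 and 332 TPM and at 185 and 190 TPM. The 20 leading genes were chosen by their level in the estimated-count table. A lower value in the other table follows in part from this choice. All 20 were lower in the expected-count table, and 6 of the 20 were also among the 20 highest there. The ranking of that table was led by Uchl1, a ubiquitin hydrolase that makes up much of the soluble protein of neurons, at 301 and 303 TPM, then Prkcb, at 186 and 198 TPM, and Rps16. Of the 100 leading genes of each table, 47 were shared.

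**Figure D2:**
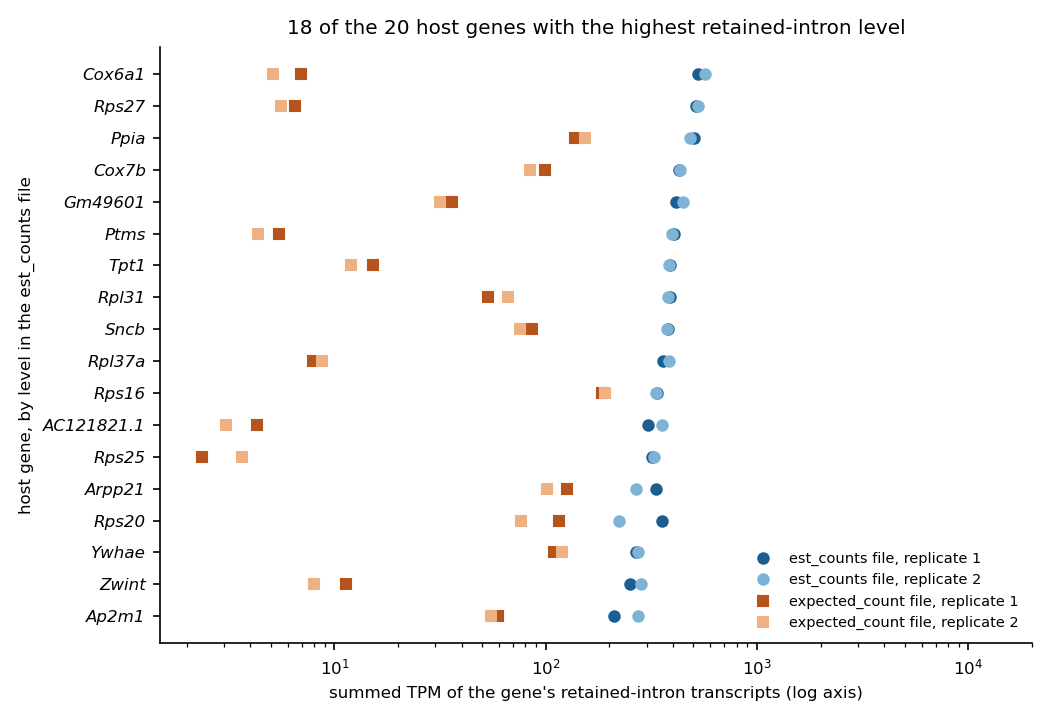
Summed TPM of the retained-intron transcripts of 18 of the 20 leading host genes (log axis; circles, estimated-count table, est_counts; squares, expected-count table, expected_count; dark, replicate 1; light, replicate 2). Circles of most genes lie close together (Rps20, at 354 and 223 TPM, Ap2m1 and Arpp21 lie further apart), from 523 and 569 TPM for Cox6a1 down to 209 and 272 TPM for Ap2m1, while squares reach down to 2.35 and 3.64 TPM for Rps25.

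Within their genes, retained-intron transcripts usually held a minor part. Over the 7914 host genes at 1 TPM or more in both libraries, the median share of the gene's TPM was 11.1% ± 0.71 (SD of the medians of the libraries, n = 2), with quartiles at 4.32% and 24.4%. The expected-count table gave a median of 10.1%, with quartiles at 4.10% and 21.8%, over 7549 genes. Taken in estimated counts, which are not divided by length, the median share was 5.38%. The share lay under 5% in both libraries in 1919 genes, or 24.2%. Over their own host genes, nonsense_mediated_decay transcripts held a median of 7.33% (3780 genes) and processed_transcript ones 7.07% (6491 genes).

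A share of 50% or more in both libraries was found for 363 genes, and for 295 in the expected-count table. Both tables had 169 of these, which is 46.6% of the former and 57.3% of the latter. The 363 genes had a median of 16.5 TPM, below the 27.8 TPM of all 7914. Of the 15 highest shares among genes at 5 TPM or more that also have a protein_coding transcript, those of Carmil2, Rps20, A2ml1 (a protease inhibitor), Rgs11 and Mrps26 were over 90% in both tables and libraries. Carmil2 held 100% and 99.8%, and 100% and 99.9% in the expected-count table, on 43.8 and 42.5 TPM and 27.8 and 27.0 TPM. Rgs11, a brake on G-protein signalling, held 92.7% and 93.1%, and 94.6% and 95.6%.

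Mrps26, a protein of the mitochondrial ribosome, held 93.3% and 92.4%, and 92.9% and 92.1% in the expected-count table. Glt8d1, a glycosyltransferase, held 93.2% and 94.1%, and 84.9% and 80.3%. In Mdp1, BC003965 and Ripply2 the share was 100% in both libraries, and 61.1%, 72.0% and 87.4% on average in the expected-count table. Cox7b had 99.2% and 99.4%, and 61.8% and 52.7%. The spliceosomal and decay factor gene Lsm5 had 100% and 87.5% but 11.9% and 2.05% in the expected-count table, and 9030025P20Rik had 100% and 87.5%, and 94.7% and 100%. Gm49601 had 95.7% and 95.6%, but 29.6% and 27.1% in that table, and the shares of Rps27 and Rps25 in the expected-count table were under 2%. Among these 15 genes a share over 90% thus held in both libraries for all but Lsm5 and 9030025P20Rik, and in both tables for 5.

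The genes with the most retained-intron transcripts were Gas5, a growth-arrest RNA that hosts snoRNAs, with 20, Hand2os1 with 18, Cspp1 with 16, Eif4a2 with 15 and Tia1 with 14. A median host had 2, and 4132 hosts had 1. Tia1, an RNA-binding protein of stress granules that itself regulates splicing, had 67.2% of its TPM in them, at 53.2 and 57.9 TPM, and 63.5% in the expected-count table. Cspp1, a protein of the centrosome and cilium, had 63.1% and 49.8%, and 64.6% and 61.2% in the expected-count table. In Gas5 the share was 30.7% and 25.8%, at 50.8 and 41.5 TPM, and 44.7% and 39.3% in the expected-count table. Hand2os1 stood under 1 TPM in both libraries.

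Of the lists with splicing genes, all but that of hnRNP and PTB proteins had a median share above that of all hosts. In the list of CLK kinases and OGT, textbook examples of genes with detained introns, 6 of 7 entries were hosts and all 6 had a share above the median of all hosts, with a median of 33.0% against 11.1% (37.4% against 10.1% in the expected-count table). The CLK kinases phosphorylate SR proteins, and OGT adds N-acetylglucosamine to nuclear proteins. Clk4 had 45.9 and 44.9 TPM, 55.1% and 59.1% of the gene. Ogt had 39.7 and 34.2 TPM, 30.2% and 27.6%, and Clk1 had 35.9 and 19.8 TPM, 46.6% and 35.8%. Mat2a, which makes S-adenosylmethionine, had 21.7 and 14.1 TPM, 18.4% and 13.7%, and Clk2, the lowest, had a mean of 9.99 TPM. The members of all lists were chosen with results of these libraries known, so their counts and medians are descriptions. A share also sums over all annotated retained-intron transcripts of a gene. Clk1 and Clk4 have 7 each and Ogt has 3, beside a median of 2 per host. The part of this number in the shares of any list was not tested.

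SR proteins bind exons and recruit the splicing machinery. Of 13 in the list 10 were hosts, 9 of them above the median of all hosts, and their median share was 25.5% (25.7% in the expected-count table). Srsf11 led with 67.6 and 75.9 TPM, 54.9% and 57.9% of the gene, then Srsf5 with 60.8 and 51.3 TPM. Srsf2 followed with 27.7 and 25.8 TPM and Srsf1 with 24.9 and 28.0 TPM. Srsf4 was the lowest of the list at 3.35 and 1.58 TPM, a share of 5.47% on average. Shares between 5.47% and 56.4% thus occurred within this 1 family.

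Proteins of the U1 and U2 particles and of intron recognition had a median share of 22.8%, and 16 of 21 hosts lay above the median of all hosts. Snrnp70, the 70-kilodalton protein of the U1 particle, had 148 and 129 TPM, 38.0% and 36.8%, and 53.6% and 51.8% in the expected-count table. Srrm2, a scaffold of nuclear speckles, had 93.7 and 90.4 TPM and Rbm39, a factor related to the U2 auxiliary factor, had 79.7 and 77.1 TPM. Sf3a1, the lowest detected in both libraries, had 3.71 and 3.08 TPM. The hnRNP and PTB proteins, which mostly repress splice sites, lay lower, with a median share of 10.2% and 7 of 15 above the median of all hosts. Their leading hosts were Hnrnpa2b1 at 124 and 104 TPM, Hnrnpl at 64.0 and 58.8 TPM, Hnrnpk at 39.0 and 35.8 TPM and Ptbp2, the neuronal PTB protein, at 28.5 and 31.4 TPM, and Hnrnpul1 was the lowest detected at 2.84 and 2.35 TPM. The share of Ptbp2 was 28.6% and 31.4% but 8.83% and 9.35% in the expected-count table.

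Neuronal and glial effector genes had low shares. In the list of synaptic and neuronal genes 26 of 32 entries were hosts, with a median share of 2.70% (2.85% in the expected-count table), and 5 of 26 lay above the median of all hosts. Ank2, which anchors channels to the axon skeleton, had 84.9 and 76.2 TPM. Gria2, the AMPA receptor subunit that blocks calcium entry, had 78.8 and 71.7 TPM, 23.8% and 21.9%. Gad1, a GABA-making enzyme, was the lowest detected at 1.97 and 1.59 TPM on 155 and 158 TPM of the gene. Of 4 presynaptic genes whose introns are known to be held back by PTBP1 in other cells, Vamp2 had 6.43 and 4.50 TPM, 0.64% and 0.46% of the gene, and Sv2a had 5.29 and 0.904 TPM, and the other 2 had no retained-intron transcript in the annotation.

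Glial and myelin genes had a median share of 0.719%, and 2 of 11 hosts lay above the median of all hosts. Slc1a3, the glutamate transporter of astrocytes, had 81.2 and 57.6 TPM, 26.2% and 20.9%, but 10.7% and 6.41% in the expected-count table. Aldoc, the aldolase of astrocytes, had 107 and 89.6 TPM, a share of 15.5% on average, which was 0.606% in the expected-count table. Glul, glutamine synthetase, had 10.1 and 7.03 TPM. Clu, the lowest detected, had 4.42 and 3.71 TPM in a gene of more than 1000 TPM. In bulk tissue, fewer cells of a type and less RNA per cell cannot be told apart.

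**Figure D3:**
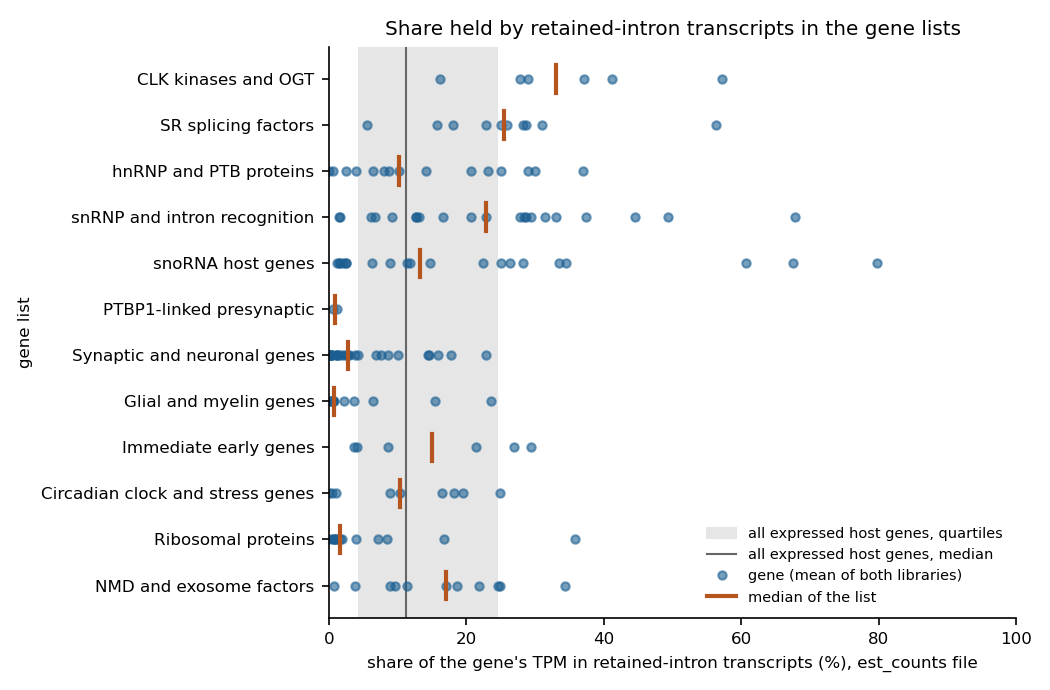
Share of each gene's TPM held by its retained-intron transcripts (%, mean of both libraries, estimated-count table), 1 point per host gene at 1 TPM or more in both libraries, by gene list; orange bars are list medians, the grey line and band the median and quartiles of all such hosts. Points of the CLK, SR and intron recognition lists lie mostly right of the line at 11.1%, and those of synaptic, glial and ribosomal genes mostly left of it.

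Immediate early genes, which switch on within minutes of neuronal activity, had 6 hosts of 18 entries, with a median share of 14.9%. Egr3 had 39.3 and 31.8 TPM and Fosl2 had 14.0 and 9.44 TPM. Nr4a1 had 8.36 and 0.631 TPM, 7.08% and 0.963%, while the whole gene went from 118 to 65.5 TPM. Dusp1, a phosphatase that turns off MAP kinases, had 4.69 and 1.26 TPM, with the gene at 41.7 and 21.7 TPM, and Npas4, the lowest detected, had 3.75 and 1.99 TPM. Over the 6, the median log2 of replicate 2 over replicate 1 in TPM was -0.66, beside -0.11 for all hosts. Among clock and stress genes the median share was 10.3%. Sgk1, a kinase induced by glucocorticoids, had 7.93 and 9.30 TPM. Of the clock genes, Nr1d2 had 8.35 and 8.86 TPM, Dbp had 12.1 and 4.29 TPM, Per3 had 5.49 and 3.21 TPM and Arntl, the lowest detected, 3.35 and 2.15 TPM.

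The 16 ribosomal protein genes of the list had a low median share, 1.64% over 13 hosts, although other ribosomal protein genes lead the class. Rpl4 had 145 and 141 TPM, 36.1% and 35.5%, but 3.58 and 2.37 TPM, 1.70% and 1.12%, in the expected-count table. Rpl27a had 75.4 and 66.5 TPM, Rpl13 had 21.3 and 13.1 TPM and Rpl10 had 15.5 and 18.0 TPM. Factors of nonsense-mediated decay and the exosome had a median of 16.9% over 11 hosts. Smg5, a decay adaptor, had 12.2 and 13.1 TPM, and Zfc3h1, which targets nuclear RNA to the exosome, had 11.1 and 10.5 TPM. The nuclear pore protein gene Tpr had 9.57 and 11.2 TPM, Exosc10 had 7.64 and 7.40 TPM and Upf3a 3.75 and 3.98 TPM. The 15 long non-coding RNAs of the brain list included no host.

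Introns of many genes carry snoRNAs, which guide RNA modification and are trimmed from the spliced intron. A snoRNA gene lay whole inside an exon of 108 retained-intron transcripts and a miRNA gene inside one of 91. The 108 summed to 874 TPM, and to 174 TPM in the expected-count table, 5.02 times lower, where the ratio for the whole class was 1.92. AC121821.1-204, which contains Snora74a, took 291 and 345 TPM, but 0.86 and 0.76 TPM in the expected-count table. Rps20-202, with the snoRNA gene Gm24016 inside, stood at 204 and 81.4 TPM and at 26.2 and 11.9 TPM. Reads of a mature snoRNA that is shorter than its host cannot be told apart here from reads of the host. Among 34 snoRNA host genes listed, 20 were hosts of retained-intron transcripts, with a median share of 13.2%, above the 11.1% of all hosts. In the expected-count table it was 9.08%, below the 10.1% of all hosts there. Eif4a1, a helicase of translation start, had 156 and 154 TPM but 10.5 and 9.59 TPM in the expected-count table, and Eif4a2 had 136 and 164 TPM and there 43.1 and 36.1 TPM. The nucleolar protein gene Ncl had 60.3 and 63.2 TPM, 60.2% and 61.3%, and 75.7% on average in the expected-count table. Rpl13a had 53.6 and 54.3 TPM, and 19.5 and 23.7 TPM in the expected-count table, and Snhg8, the lowest, 1.62 and 1.45 TPM.

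Both tables were compared over the 11812 retained-intron transcripts with a mean of at least 10 counts over the 4 columns. Ratios were taken on TPM + 0.5 and centred on the median of all 55588 transcripts compared, a factor of 1.47. The summed TPM of those 55588 was nearly the same in both tables, with a ratio of 0.991. Of the 11812, 9785, or 82.8%, lay within 2-fold, 1086 were higher in the estimated-count table and 941 in the expected-count table. Over 2-fold apart were thus 17.2% of them, where 26.3% of all transcripts were. Across transcripts Spearman's rho between the tables was 0.62 and 0.63, and between the libraries it was 0.84 within the estimated-count table and 0.88 within the other; transcripts of a table share its reads and model, so these values only describe it. Within 2-fold were also 59.4% of processed_transcript, 64.9% of nonsense_mediated_decay and 72.9% of protein_coding transcripts. In the same order, rho between the tables was 0.27 and 0.26, 0.44 and 0.45, and 0.68 and 0.68. Over all transcripts it was 0.60 and 0.60. Between the libraries, rho within the estimated-count table was 0.86, 0.82 and 0.93 in that order, and 0.91 over all transcripts. Within the expected-count table it was 0.86, 0.80 and 0.94, and 0.92 over all transcripts.

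The ratio moved with length. Retained-intron transcripts of up to 400 bases had a median centred log2 ratio of -3.92 (97 transcripts, 14.4% within 2-fold), those of 401 to 500 bases -0.36, those of 501 to 600 bases 0.22 and those over 2500 bases -0.06 (4066 transcripts, 94.5% within 2-fold). In the estimated-count table, long transcripts are shortened by 345.16 and 340.16 bases to their effective length. It also moved with how many bases a transcript has in no exon of its gene's transcripts of other types, a median of 40.9% of its length. Of those with at most 50 such bases 51.2% lay within 2-fold, and of those with over 800, 96.6%. The part of length and of shared bases in the difference was not tested.

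**Figure D4:**
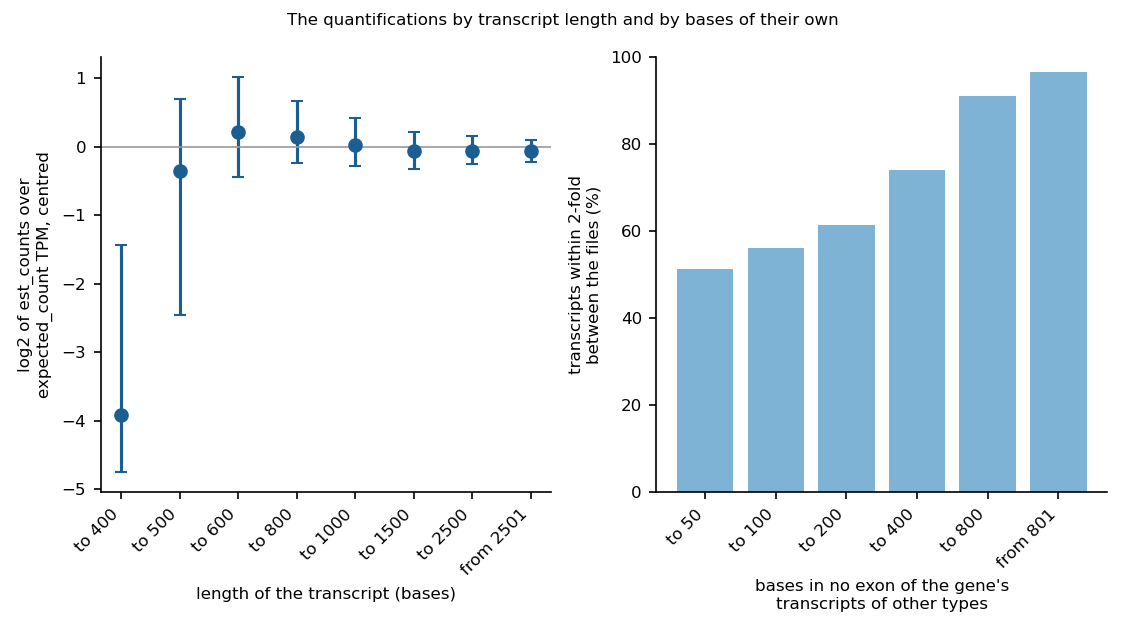
Left, log2 ratio of TPM in the estimated-count table (est_counts) over the expected-count table (expected_count), centred on all transcripts, as median and quartiles of the retained-intron transcripts in 8 classes of length. Right, percent of them within 2-fold by bases in no exon of the gene's transcripts of other types; the share goes from 51.2% at up to 50 bases to 96.6% from 801 bases.

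The largest differences between the tables, among retained-intron transcripts with a mean of at least 100 counts, often came with an opposite difference in the leading mRNA of the gene. Rps27-209, 546 bases, stood at 491 and 456 TPM and at 2.83 and 1.98 TPM in the expected-count table, while the 345-base mRNA Rps27-201 stood at 0 in both libraries and at 337 and 327 TPM. Rps25-203 stood at 314 and 322 TPM and at 0.84 and 1.89 TPM, and the 393-base mRNA Rps25-204 at 0 in both libraries and at 161 and 173 TPM. Ppia-204, Atp5l-202 (192 and 178 TPM, then 0.46 and 0 TPM) and AC121821.1-204 complete the 5 highest. The mRNA Ppia-202 was also lower in the expected-count table (466 and 493 TPM, then 8.31 and 11.8 TPM), and Atp5l-201 had near values in both tables (152 and 140 TPM, then 148 and 143 TPM, before centring). In Rps27 and Rps25 the tables thus put the gene's reads in different transcripts.

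At the other end, Uchl1-202 stood at 0 in both libraries and at 291 and 289 TPM in the expected-count table, while the mRNA Uchl1-201 stood at 616 and 642 TPM and at 103 and 116 TPM. This transcript has 52 bases in no exon of the gene's transcripts of other types. Atp5j-208 stood at 0 and at 135 and 136 TPM, and its mRNA Atp5j-203 at 258 and 262 TPM and at 3.66 and 3.87 TPM. Grcc10-203 (108 and 116 TPM) and Uqcrh-205 (120 and 100 TPM) were likewise at 0 in the estimated-count table, and they are 424 and 423 bases long. The mRNA Uqcrh-202 was also lower in the estimated-count table, at 8.94e-05 and 1.05 TPM against 64.2 and 77.7 TPM. Among protein_coding transcripts at 10 TPM or more in the expected-count table, 59 of 86 of up to 400 bases were under 0.1 TPM in both libraries of the other, against 63 of 5056 over 2000 bases.

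Between the libraries the class was lower in replicate 2. The median log2 of replicate 2 over replicate 1, on TPM + 0.5, was -0.14 over 11109 transcripts with a mean of at least 10 estimated counts, and -0.14 in the expected-count table. Higher in replicate 2 were 34.0% of them, beside 42.7% of all transcripts, 47.7% of protein_coding and 32.9% of lincRNA ones. The median was -0.05 for all transcripts, -0.01 for protein_coding, -0.05 for nonsense_mediated_decay, -0.25 for sense_intronic and -0.21 for TEC transcripts, loci that still await experimental proof. Across the 7914 expressed hosts the retained-intron sum had a median of -0.11 and the rest of the gene -0.00376, and the share was lower in replicate 2 in 4714 hosts, or 59.6%. In the expected-count table it was lower in 4660 of 7549, or 61.7%. Scaled to the spike-in total, with 94826 and 94654 counts, the class's median was -0.024 and that of all other transcripts 0.12, a difference of -0.14, where on TPM + 0.5 it was -0.11. The choroid plexus markers Ttr, Folr1 and Clic6 and the oligodendrocyte markers Mbp and Mog were higher in replicate 2, and the haemoglobin genes Hbb-bs (354 and 248 TPM) and Hba-a1 (355 and 231 TPM) lower. Their part in these differences was not tested, and animal and library cannot be told apart.

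Over 2-fold apart were 839 of the 11109, or 7.55%, of which 354 were higher and 485 lower in replicate 2, beside 10.7% of all transcripts. On counts + 0.5, a smaller pseudocount for most transcripts, scaled by TMM, DESeq2 size factors or spike-ins, 1347, 1328 or 1302 were, or between 11.7% and 12.1%, beside 15.2% to 15.3% of all transcripts. In the expected-count table, 683 of 11794 were, beside 8.61% of all transcripts. In both tables, in the same direction, 197 were, or 1.77%, beside 2.39% of all transcripts. Among 2310 with a mean of at least 100 counts, 30 were over 2-fold apart and 8 of them were so in both tables. The share over all transcripts at this minimum was not taken, so these counts stand without a background.

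**Figure D5:**
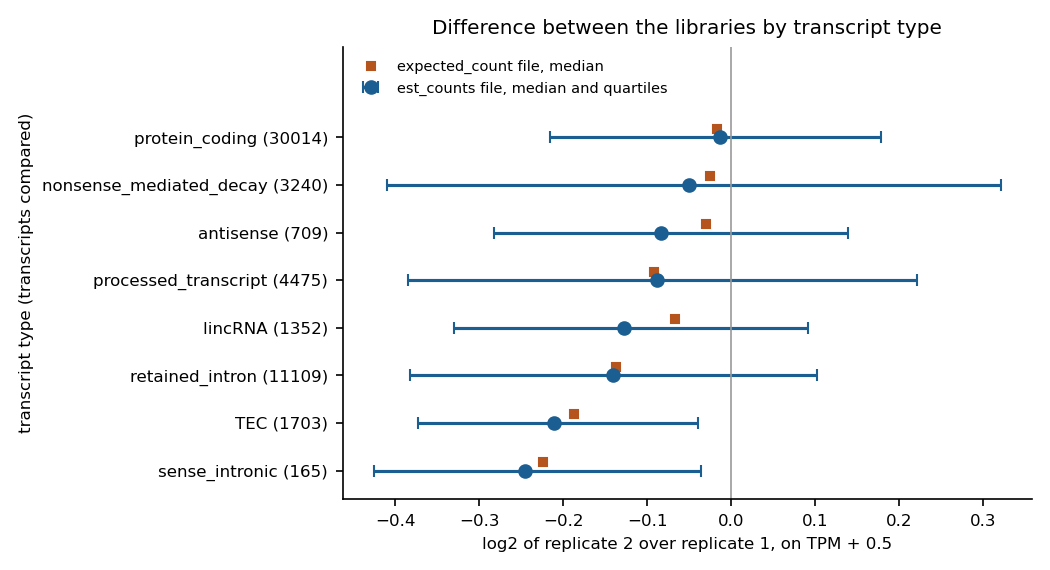
Log2 of replicate 2 over replicate 1 on TPM + 0.5 by transcript type (circles and bars, median and quartiles in the estimated-count table, est_counts; squares, median in the expected-count table, expected_count; number of transcripts in brackets). Retained-intron transcripts lie at -0.14 in both tables, between lincRNA at -0.13 and TEC at -0.21, and protein_coding at -0.01.

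Of the 5 transcripts with a mean of at least 100 counts that were most above in replicate 2, only Eif4a2-220 was over 2-fold higher in both tables, at 11.9 and 63.2 TPM and at 0 and 2.45 TPM in the expected-count table. Its intervals in that table, 3.98e-05 to 2.07 and 0.492 to 3.71 TPM, overlapped. Rps27-205 (9.36e-06 and 63.8 TPM), Ndufa5-203 (8.00 and 96.7 TPM), Cic-210 (0.00965 and 4.58 TPM) and Sec11c-207 (10.4 and 36.8 TPM) differed in the estimated-count table, with 0 and 0, 3.65 and 1.70, 4.82 and 7.39, and 0 and 0 TPM in the other. Of these 4 none was over 2-fold higher in both. At the lower end, Rps20-202 was at a log2 of -1.32 on TPM + 0.5, and at -1.10 in the expected-count table, where its intervals, 17.5 to 35.1 and 4.36 to 19.5 TPM, overlapped. Cpne6-205, from the gene of copine-6, a calcium sensor of dendritic spines, stood at 6.92 and 2.03 TPM and at 6.54 and 2.51 TPM. Mapk8ip3-217, from the gene of a motor adaptor for axonal transport, stood at 18.5 and 6.41 TPM and at 3.94 and 1.33 TPM, with overlapping intervals of 1.75 to 6.80 and 0.375 to 3.16 TPM in the latter. Those 3 were over 2-fold lower in both tables, whereas Atp5o-204 (62.8 and 20.9 TPM) and Cux2-211 (13.9 and 5.47 TPM) had log2 differences of -0.64 and -0.65 in the expected-count table.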

How the data were processed

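Transcript-level tables of both libraries were used on mm10 with GENCODE M21, per the deposited file list; programs, versions and the strand setting of the counting were not given in the sources used here. The authors deposited a table with estimated counts and TPM and a table with expected counts and TPM, per the file headers. Deposited TPM are scaled to a fixed total per library, so a change in abundant RNAs moves all others. Counts need not be whole, and were rounded for TMM factors (edgeR 4.0.16) and DESeq2 1.42.0 size factors under R 4.3.3. All else was computed in Python 3.11.15 with pandas 2.3.3 and scipy 1.17.1, over the whole tables, with a pseudocount of 0.5 TPM, a detection level of 1 TPM, and a minimum mean of 10 counts for differences and 100 for naming transcripts. Introns are those of the gene's transcripts of other types. The genes named are, by rule, the 20 hosts and 10 transcripts with the highest TPM, the 15 hosts with the highest shares at 5 TPM or more, the 5 highest and 5 lowest differences, the 5 genes with the most retained-intron transcripts, and up to 4 hosts of each list with the lowest detected one. Some of these genes are not reported here. Members and lists were chosen with earlier results of these data known. The steps were tested on simulated counts.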

Additional observations from a re-analysis of the deposited data

How the results depend on the processing

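No paired analysis was possible because there was 1 group. Of the results with alternatives, only the median difference between the libraries has a direction, and no alternative turned it. Of 60 alternative values of the main results, 39 moved beyond the limit set for them. The share of the whole depended on what it was taken of. It was 6.64% of TPM, 3.45% in the expected-count table, 7.47% without mitochondrial, ribosomal and small structural RNA, and 13.0% within host genes. In counts, 3.27% became 3.01%, 3.47% and 5.86%. Without 1 library these ranged from 6.46% to 6.81% and from 3.15% to 3.40%. At 2 TPM, 5056 transcripts were detected. The median share within genes, 11.1%, was 10.1% in the expected-count table, 5.38% in counts, 10.3% at 5 TPM and 9.84% at 10 TPM, and ranged from 10.4% to 11.4% without 1 library. Genes at 50% or more numbered 218 at 10 TPM, and 479 to 513 in single libraries.

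For the agreement of the tables (rho 0.63, 82.8% within 2-fold, ratio 1.98), rho was 0.62, 0.67 and 0.70 with a minimum of 1 count, 100 counts and none, and 0.67 in counts. The percent was 80.4, 82.5 and 80.9 under these minimums, 78.3 and 85.7 with pseudocounts of 0.1 and 1, 75.2 in counts and, chosen after seeing the data, 76.5 without centring. The ratio was 1.92, 2.24, 1.92 and, in counts, 1.12. The median difference between the libraries was -0.17 and -0.11 with pseudocounts of 0.1 and 1, -0.12 with no filter, -0.13 by TMM, -0.10 by DESeq2 size factors and -0.024 by spike-ins. Over 2-fold apart were 2577 with no filter, 30 from 100 counts, and 1347, 1328 and 1302 by those 3 scalings, which also take 0.5 counts in place of 0.5 TPM as pseudocount. With 0.1 TPM alone the number was 1256. The share over all transcripts was not taken with no filter, from 100 counts or with 0.1 TPM. The 20 leading hosts, chosen as the highest in the estimated-count table, summed to 8446 TPM there and to 1185 TPM in the expected-count table. The drop follows in part from this choice, and its cause was not tested. The drop from 2577 to 30 with a higher minimum comes in part from fewer transcripts being compared, and low counts limit what can be said of single scarce transcripts.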
